A study of Rattus norvegicus with 241 samples.

Results

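The uroplakin genes were followed through the bulk and single-cell RNA-seq data of rat mammary glands. The 5 members, UPK3A, UPK1A, UPK1B, UPK2 and UPK3B, were taken by gene symbol, ignoring case, from all tables. They were chosen because measured values of these data had put UPK3A in mature luminal cells and at the head of the genes that fell in luminal cells of young ACI rats at day 0, so those values are given here as a description, with no test. UPK3A, UPK1A, UPK1B and UPK2, 4 of the 5, were listed in at least 1 table, and UPK3B was not analysed here. The series held 241 samples, 202 of them bulk and 39 single-cell tables.

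All rats were female and of the inbred ACI or the outbred SD strain. They were given vehicle or 75 mg/kg of LY2157299, an inhibitor of the kinase of TGFβ receptor 1 (TGFBRi), by gavage 2 times a day for 10 days, or for 21 days in the estradiol (E2) experiment. Bulk samples of peripubertal virgin ACI rats were taken at days 0, 7 and 14 after the last dose (3 rats per treatment and day), and those of peripubertal virgin SD rats at day 0 (4 rats per treatment). Adult virgin and adult parous ACI rats were treated after puberty (4 rats per treatment and parity). The other animals of the bulk data were virgin, dosed around puberty and studied long afterwards. SD rats received the carcinogen NMU after the last dose and were compared as tumor-bearing vehicle, tumor-bearing TGFBRi and tumor-free TGFBRi rats, 3 of each, with their tumors. ACI rats carried empty or E2 implants. Without E2 there were 4 vehicle and 3 TGFBRi rats, and with E2 there were 4 tumor-bearing vehicle, 2 tumor-bearing TGFBRi and 4 tumor-free TGFBRi rats. Glands were sorted into CD24+CD29high basal, CD24+CD29low luminal and CD45+ cells, and tumors into EPCAM+ and CD45+ cells. Single cells came from peripubertal virgin rats at day 0: sorted basal and luminal cells of 3 vehicle and 3 TGFBRi ACI rats and of 3 vehicle and 6 TGFBRi SD rats, and whole glands of 3 vehicle and 6 TGFBRi SD rats.

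Uroplakins are the membrane proteins of the urothelial plaque, the rigid patches of membrane that cover the surface of the bladder. UPK1A and UPK1B are tetraspanins and act as partners: UPK1A binds UPK2 and UPK1B binds UPK3A or UPK3B before either pair can leave the endoplasmic reticulum. UPK3B is also a gene of mesothelium. The mammary luminal layer holds progenitor cells, which make milk proteins, and mature cells, which carry the estrogen and progesterone receptors ESR1 and PGR, while basal cells are contractile.

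Bulk values are the authors' normalized counts, and reads on genes ran from 4194912 to 52314784 per sample. The sorted fractions carried their defining markers, but some held strong markers of fibroblasts too. In basal samples of day 0 ACI rats, for example, 11 basal markers summed to 108016 to 329763, against 1307 to 2463 in the luminal samples of the same rats. In SD basal samples the 6 fibroblast markers in the table summed to 186863 to 622655, against 112441 to 247312 for basal markers, and in EPCAM+ tumor samples, whose table holds 7 of the list, they summed to 118999 to 1490400, against 44909 to 194800 for luminal markers. The single-cell data held 16762 sorted ACI cells, 39766 sorted SD cells and 103524 cells of whole glands. Cells were clustered without the uroplakin genes, and a cluster was called "X-like" from fixed markers. The descriptions of the basal and luminal samples of 1 day 7 ACI rat, LD2LR, call it treated although its titles and treatment label give vehicle. It was kept as vehicle, and no member was called at day 7 with it or without it. Few cell barcodes were shared between libraries of sorted cells (at most 3 per pair in ACI and 7 in SD), but 88 to 284 were shared between pairs of whole-gland libraries, up to 2.51% of a library. Whole-gland libraries held 7900 to 16424 cells, against 877 to 2253 in ACI and 563 to 3853 in SD, and were made with another kit. The number that chance would give was not computed.

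The uroplakins did not share a cell type. UPK3A was found mostly in mature luminal-like cells, UPK2 was sparse and also luminal, UPK1A had most of its cells among luminal progenitor-like cells, and UPK1B was found in basal-like cells. UPK3A had at least 1 UMI in 143 of 3471 mature luminal-like ACI cells (4.12%, 95% exact interval 3.48 to 4.84%, which covers counting error only). It had none in 9693 basal-like ACI cells. Taken as 3 counts of that total, this allows a share of cells with a UMI of up to 0.0310% (95% exact upper limit 0.0380%). The median depths of the mature luminal-like and basal-like cells were 8155 and 5943 UMIs.

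The class held UPK3A in all 3 experiments. In sorted SD cells the share was 1.73% of 7699 mature luminal-like cells against 0.0405% of 14810 luminal progenitor-like and 0.00701% of 14257 basal-like cells. The rats ran from 0 to 6.39%, and without SD13 the share of mature luminal-like cells was 0.902%. In whole glands it was 9.32% of 4347 mature luminal-like cells against 0.104% of luminal progenitor-like, 0.0542% of basal-like and 0.0799% of leukocyte-like cells, the last at a median depth of 2524 UMIs. The rats ran from 1.28 to 27.2%, and without veh4 the share was 6.74%. The cells of that class differed in depth from one experiment to another, and when each cell was thinned to 2000 UMIs the shares were 2.32% in ACI, 0.811% in SD and 6.97% in whole glands. Among mature luminal-like ACI cells, UPK3A was concentrated in 1 of 2 clusters: it had a UMI in 11.2% of 1184 cells of the cluster led by GP2, CITED1 and NPTX2 and in 0.437% of 2287 cells of the cluster led by CLCA1, FCGBP and SLC6A14.

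Among the named classes the highest shares were in cycling clusters of mature luminal-like or undivided luminal-like cells, and not in the cycling luminal progenitor-like SD cells, of which 0.322% of 933 had a UMI (0% after thinning). UPK3A had a UMI in 27.1% of the cycling luminal-like ACI cells, in 11.7% of the 266 cycling mature luminal-like SD cells and in 31.2% of the 144 such cells of whole glands. Without SD13 the SD share was 7.07%, and without veh4 that of whole glands was 19.7%. These cells were also deeper, with medians of 22546, 14462.5 and 17902.5 UMIs, and after thinning the shares were 14.3, 7.09 and 21.7%. In all 3 experiments the thinned share stayed above that of mature luminal-like cells that were not cycling. The part of depth in the rest of the difference was not tested.

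UPK1B, the tetraspanin partner of UPK3A in the bladder, lay on the other side of the bilayer. It had a UMI in 38.1% of basal-like ACI cells, 45.2% of basal-like SD cells and 28.3% of basal-like cells of whole glands. In the deeper cycling basal-like cells the shares were 67.8, 71.9 and 37.9%, and after thinning to 2000 UMIs they were 13.3, 20.51 and 10.2%, against 13.2, 17.5 and 11.1% of basal-like cells that were not cycling. Fibroblast-like cells held it in 25.5% of 47 ACI cells, 5.96% of 151 SD cells and 1.56% of 10707 whole-gland cells. Sorted SD cells all had at least 2 keratin UMIs and none of PTPRC. Among them mural-like cells held it in 10.99% of 373 and endothelium-like cells, at a median of 944.5 UMIs, in 9.69% of 382. The classes of these names in whole glands held it in 0.265% and 0.0201%. Those cells were not sorted or filtered in this way, so the 2 sets are not alike. In mature luminal-like cells the share was 0.0288%, 0.0649% and 0.0230%, at or below that of leukocyte-like cells of whole glands (0.0555%) but for SD. UPK1A had a UMI in 3.19%, 2.40% and 1.92% of luminal progenitor-like cells and in 0.864%, 1.403% and 1.08% of mature luminal-like cells, against 0.0413% of basal-like ACI cells. UPK2, the partner of UPK1A, had a UMI in 0.605%, 1.30% and 2.00% of mature luminal-like cells, in 0.0420%, 0.0810% and 0.113% of luminal progenitor-like cells and in none of the basal-like cells of any experiment. In whole glands a deep class that could be called only luminal-like, with a median of 20431.5 UMIs, had a UMI of UPK1A in 3.62% of cells and of UPK2 in 2.40%. Thinned to 2000 UMIs the order turned: the shares were 0.310% for UPK1A, against 0.590% of luminal progenitor-like cells, and 0.155% for UPK2, against 0.392% of mature luminal-like cells.

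**Figure D1:**
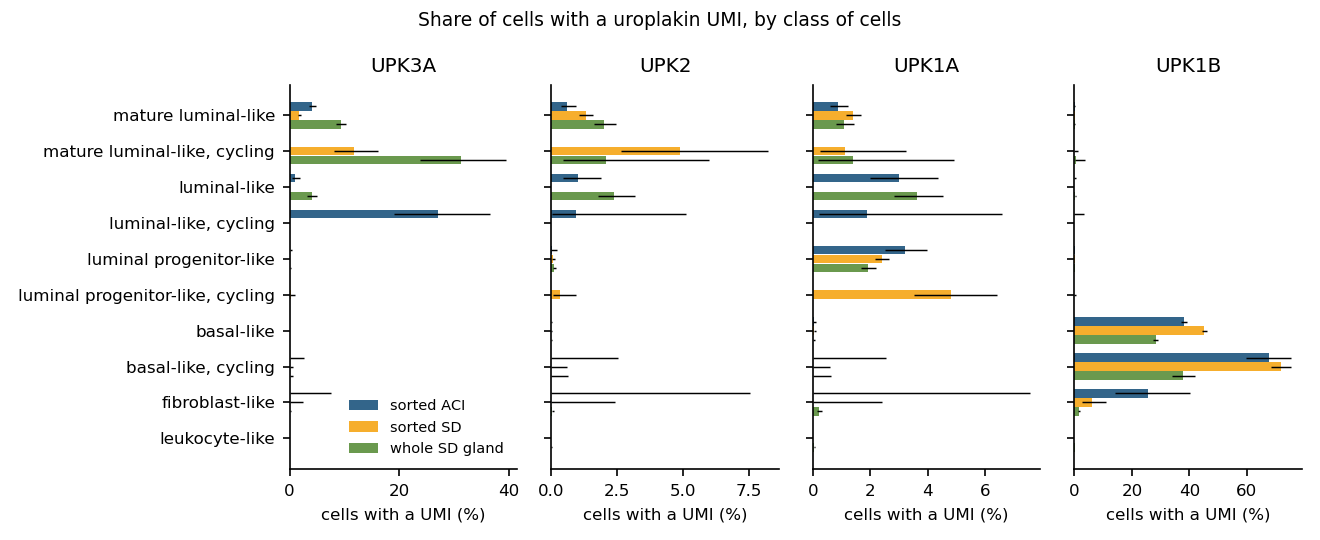
Share of cells with at least 1 UMI (percent, x axis, with its own scale for each gene) of each uroplakin by class of cells (y axis), with bars for sorted ACI cells, sorted SD cells and whole SD glands and 95% exact intervals as lines. UPK3A stands highest in cycling luminal classes, up to 31.2%, and UPK1B in basal-like classes, up to 71.9% in cycling SD cells.

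The starts of UPK3A and UPK1B were compared because their cell types differ most clearly. Each line gives 250 bases before and 50 after the start of the gene from RefSeq (build GRCr8), at chr7:118014540-118014839 on the plus strand for Upk3a and at chr11:75459131-75459430 on the plus strand for Upk1b. Capitals mark matches to the motifs searched on both strands.
Upk3a: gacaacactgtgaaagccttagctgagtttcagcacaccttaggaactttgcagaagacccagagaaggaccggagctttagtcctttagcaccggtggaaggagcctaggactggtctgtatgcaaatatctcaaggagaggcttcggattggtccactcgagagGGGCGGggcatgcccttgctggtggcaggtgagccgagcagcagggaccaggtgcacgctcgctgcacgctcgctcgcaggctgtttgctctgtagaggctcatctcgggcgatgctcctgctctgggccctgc
Upk1b: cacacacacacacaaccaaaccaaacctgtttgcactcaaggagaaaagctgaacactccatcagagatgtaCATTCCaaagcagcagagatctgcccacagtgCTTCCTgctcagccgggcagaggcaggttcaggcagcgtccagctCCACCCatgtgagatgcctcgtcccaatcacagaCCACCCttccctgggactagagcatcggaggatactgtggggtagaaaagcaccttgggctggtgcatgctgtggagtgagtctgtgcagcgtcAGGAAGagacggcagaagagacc
The Upk3a window held 1 GC box (GGGCGG, found in 33.1% of 33469 promoters of this length), 84 bases before the start. The Upk1b window held 2 KLF motifs (CCACCC, in 29.4%), 2 ETS motifs (AGGAAG, in 34.5%) and 1 TEAD motif (GGAATG, in 14.2%). Neither held the TATA box (TATAAA), or the letters used for RUNX factors (TGTGGT), for FOX factors (TGTTTA), for GATA factors (AGATAA), for AP-1 (TGANTCA), for nuclear receptors (AGGTCA), for SMAD factors (CAGACA) or for grainyhead factors (AACCGG). The windows shared none of these motifs, and a match in letters is not a site.

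Few cells carried most of the UPK3A. Cells with 3 or more UMIs, a minimum chosen after the values were seen and called UPK3A-bearing below, numbered 112 of 186 cells with any UMI in ACI, 95 of 181 in SD and 359 of 621 in whole glands. They held 94.5%, 92.9% and 95.4% of all UPK3A UMIs. A bearing cell had a median of 10 UMIs in ACI, 8 in SD and 10 in whole glands, and at most 91, 93 and 267. Mature luminal-like cells made up 75.9%, 75.8% and 72.98% of them, and cycling luminal-like or mature luminal-like cells a further 19.6%, 18.9% and 10.3%. Luminal-like cells that were not cycling held 11.4% of those of whole glands. They were deeper than other luminal cells, with medians of 19338 against 9196 UMIs in ACI, 13103 against 7808 in SD and 13581 against 5878 in whole glands. Of the bearing cells, 3.57%, 11.6% and 7.80% were among the 6% of cells that a doublet caller scored highest.

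Few bearing cells had a UMI of the partners of the plaque. UPK1B was found in 0 of 112, 0 of 95 and 3 of 359 bearing cells, UPK2 in 1, 3 and 7, and UPK1A in 2, 2 and 1. For UPK2 these were 0.893%, 3.16% and 1.95% of bearing cells, against 0.620%, 1.28% and 2.03% of the other mature luminal-like cells. For UPK1A they were 1.79%, 2.11% and 0.279%, against 0.827%, 1.39% and 1.13%. For UPK1B they were 0%, 0% and 0.836%, against 0.0295%, 0.0656% and 0.0245%, so that in whole glands the share was higher in bearing cells, on 3 cells. Bearing cells were deeper, and the part of depth was not tested. Over all cells with any UMI, UPK3A and UPK1B were found together in 0 ACI, 0 SD and 5 whole-gland cells, and UPK1A and UPK2 in 0, 3 and 5.

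**Figure D2:**
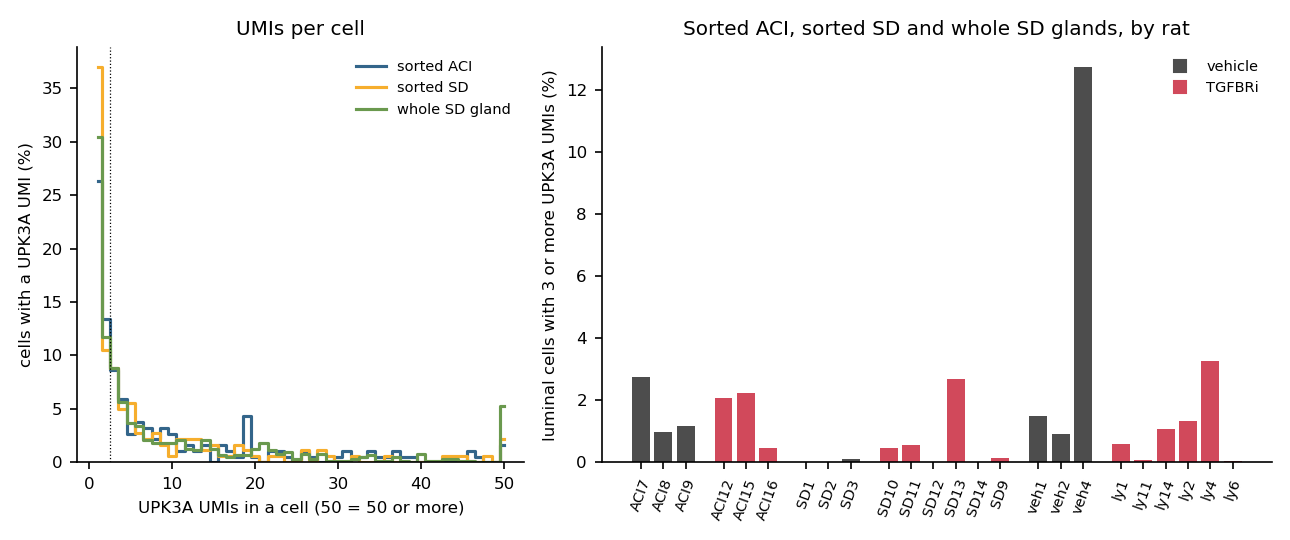
Left, the percent of cells with a UPK3A UMI (y axis) by the number of UPK3A UMIs in the cell (x axis, with 50 standing for 50 or more), with a dotted line below the minimum of 3. Right, a bar per rat for UPK3A-bearing cells as a percent of luminal cells (y axis), coloured by treatment and ordered as sorted ACI, sorted SD and whole SD glands. Whole-gland vehicle rat veh4 stands highest at 12.7%, and vehicle and TGFBRi rats overlap in each experiment.

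Other genes differed between the bearing cells and other mature luminal-like cells of the same rats. The other cells came from all clusters of the class, and no comparison was made within a cluster. In ACI, GP2 and CITED1 also led the cluster with most UPK3A, and CLCA1 led the other. Differences of bearing cells can therefore not be told apart from differences between clusters. The comparison was a description over 4 ACI rats, 2 sorted SD rats and 6 whole-gland rats with at least 10 bearing cells, with log2 differences of UMIs per 10000 plus 0.1. The sorted SD rats, SD11 and SD13, were both TGFBRi rats, so no sorted SD vehicle rat is among them. Values are pooled over the cells of these rats unless single rats are named, and a pooled value can lie outside the range of its rats, since rats gave unequal numbers of bearing cells. The cells were picked by UPK3A after the data were seen, so no test was made, and the genes named here were chosen after their values were seen. GP2, a membrane glycoprotein known from pancreatic secretory granules, was higher in every rat compared, by 1.19 to 3.04 in ACI, 2.12 and 2.51 in SD and 1.41 to 2.31 in whole glands. Between bearing and other cells of like depth, the pooled differences were 1.79, 3.03 and 2.14. CITED1, a transcriptional co-regulator of estrogen receptor-positive mammary cells, was higher by 1.22 to 1.70 in ACI, 0.27 and 0.92 in SD and 0.37 to 1.26 in whole-gland rats, and by 0.14 in pooled SD cells of like depth. The 3 hormone receptors of the mature luminal list were lower in most rats. ESR1 lay between -1.0003 and -0.53 in ACI rats, at -0.78 and -0.35 in the SD rats and between -0.64 and 0.03 in whole-gland rats. PGR was higher in 1 of 4, 0 of 2 and 2 of 6 rats and the prolactin receptor PRLR in 0 of 4, 0 of 2 and 1 of 6. AREG, an epidermal growth factor receptor ligand of the same list, had no common direction, with pooled differences of 0.79, -0.55 and -0.18. Of the 9 mature luminal markers with a UMI, 2, 4 and 3 were higher in bearing cells (medians -0.41, -0.09 and -0.13), where 49.5%, 51.04% and 46.2% of all genes were. Of 12 cycling markers 12, 9 and 12 were higher (medians 0.80, 0.22 and 0.27). GGH, γ-glutamyl hydrolase, was higher in every rat compared, by 0.54 to 0.75 in ACI, 0.87 and 0.94 in SD and 0.29 to 1.09 in whole glands. CCND1, cyclin D1, was too, by 0.05 to 1.27, 0.68 and 0.95, and 0.23 to 1.26. CLCA1, a secreted regulator of chloride channels, was lower in every rat compared, with differences of -5.39 to -1.86 in ACI, -1.84 and -0.35 in SD and -2.50 to -1.08 in whole glands. Of the genes of urothelial differentiation and apical trafficking with a UMI, 6 of 11, 9 of 11 and 7 of 10 were higher (medians 0.06, 0.43 and 0.20). Of 11 urothelial regulators 5, 6 and 9 were higher, with medians of -0.01, 0.06 and 0.02. Among them NOTCH1 was higher in 3 of 4, 1 of 2 and 6 of 6 rats and OVOL1 in 2 of 4, 0 of 2 and 1 of 6, and PPARG was nearly absent, with a UMI in 1.35%, 1.72% and 4.35% of bearing cells.

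In bulk luminal cells of young ACI rats, UPK3A was near 0 at day 0 of TGFBRi treatment and present in every other group. The normalized counts at day 0 were 664, 751 and 1072 in vehicle rats and 17.1, 13.4 and 0 in TGFBRi rats. At day 7 they were 126, 224 and 468 with vehicle and 905, 305 and 345 with TGFBRi, and at day 14 they were 156, 79.97 and 345 with vehicle and 149, 439 and 771 with TGFBRi. The treatment groups did not overlap at day 0 and overlapped at days 7 and 14. The differences (TGFBRi minus vehicle) on the log2(value + 1) scale were -6.99 (SE 0.92) at day 0, 0.95 (SE 0.92, limma adjusted p = 0.85) at day 7 and 1.18 (SE 0.92, limma adjusted p = 0.795) at day 14. The day 0 value is what the members were chosen on and carries no test. Of all genes tested there, 1.01% were called, 0.823% higher and 0.184% lower with TGFBRi. The median gene lay at 0.21 at day 0, at 0.09 at day 7 and at 0.04 at day 14. In bulk, fewer cells of a type and less RNA per cell cannot be told apart.

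UPK3A in vehicle rats was lower at days 7 and 14 than at day 0, by -1.77 (SE 0.92) and -2.31 (SE 0.92), with no overlap between day 0 and either later day, and in TGFBRi rats it was higher by 6.16 and 5.86. These differences share the day 0 samples of the choice and carry no test. The summed markers of the luminal layer as a whole overlapped between the treatments at day 0: 8 luminal markers ranged from 462431 to 499655 with vehicle and from 468055 to 508953 with TGFBRi. Mature luminal markers ranged from 15435 to 19113 with vehicle and from 11663 to 15242 with TGFBRi, and markers of cycling cells from 6381 to 8175 and from 3698 to 4740. Neither the mature luminal nor the cycling markers overlapped between the treatments, with depths of 18895823 to 21160386 and 8922897 to 18568520 reads. The mature luminal markers did not move together. CITED1 had a mean of 6192 with vehicle and 1884 with TGFBRi, and AREG 1851 and 891. TBX3 had 2338 and 4318, and FOXA1 1734 and 2595. The part of the mature luminal and cycling markers in the difference of UPK3A was not tested.

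**Figure D3:**
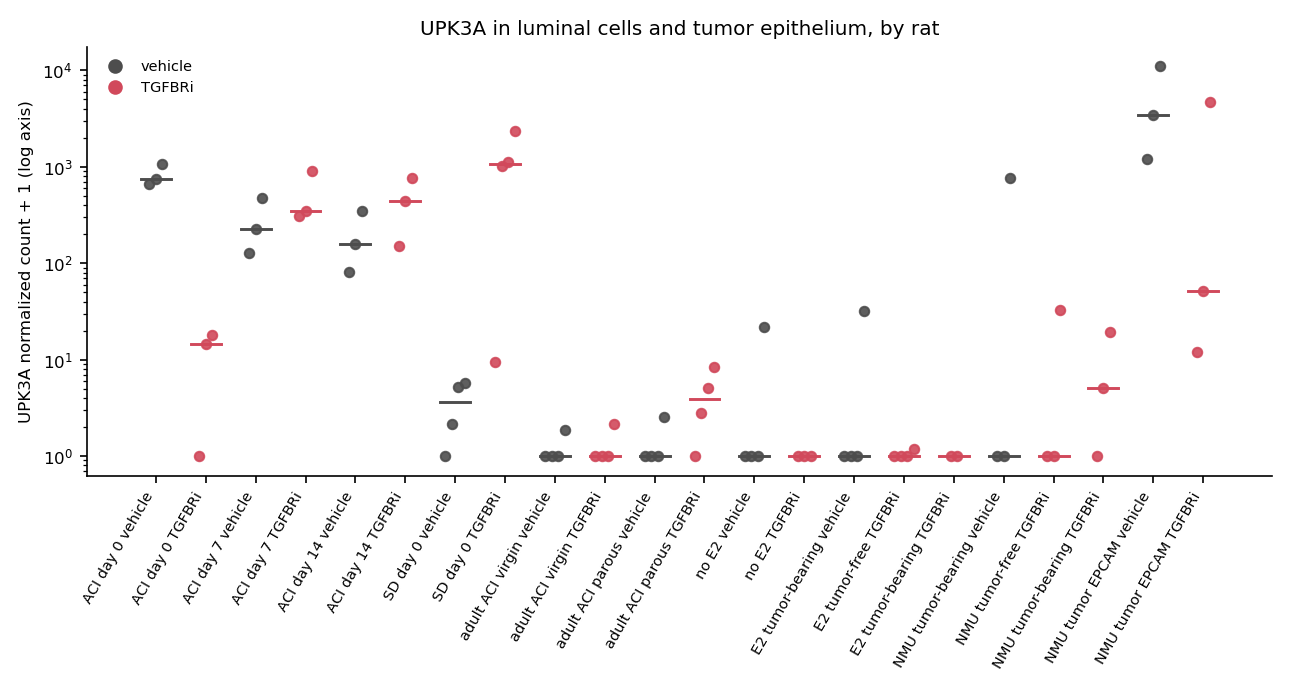
UPK3A in bulk luminal samples and EPCAM+ tumor cells (normalized count plus 1, log axis) by group, with 1 point per rat, vehicle and TGFBRi in separate colours and a line at the group median. At day 0, ACI vehicle rats lie between 664 and 1072 and TGFBRi rats at 17.1 or below, and in SD rats 3 of the 4 TGFBRi rats lie at 1029 or higher and all vehicle rats at 4.71 or below.

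In single cells of other ACI rats at day 0 the treatment groups overlapped. Bearing cells made up 2.76%, 0.991% and 1.18% of luminal cells in the vehicle rats and 2.07%, 2.24% and 0.446% in the TGFBRi rats. The groups overlapped, and 2 of the 3 TGFBRi rats lay above 2 of the 3 vehicle rats. In UMIs summed over mature luminal-like cells of a rat, UPK3A stood at 0.151, 0.323 and 0.482 UMIs per 10000 with vehicle and at 0.162, 0.615 and 0.651 with TGFBRi. The difference was 0.80 on the log2 scale (edgeR adjusted p = 0.494), and the adjusted p ranged from 0.207 to 0.755 when rats were left out in turn. Of the genes tested in this class, 26.1% were called, 13.7% higher and 12.4% lower. The class held the same clusters in both treatments, with 64.4% and 67.9% of its TGFBRi and vehicle cells in the larger one.

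In SD rats the values lay the other way round. The luminal samples held 1.14, 4.17, 0 and 4.71 with vehicle and 1119, 1029, 2369 and 8.38 with TGFBRi. The groups did not overlap, but only 3 of the 4 treated rats stood far above the vehicle rats, and the fourth, D8R, lay close to them. The deposited descriptions call D7N and D7R (1119 and 1029) weak and D8N and D8R (2369 and 8.38) strong responders. The rats were not split by these words, and both the highest and the lowest were strong responders. The difference was 7.15 (SE 1.39, limma unadjusted p = 0.000181, adjusted p = 1). With limma none of the 4 members was called in SD luminal cells, where 0% of all genes were. Of the members 1, UPK3A, had an unadjusted p under 0.05, as had 244 of 12584 genes. By edgeR none was called, and by DESeq2 UPK3A was (adjusted p = 4.56e-06). Without D8R, the treated rat closest to the vehicle rats, limma called it too (8.95, adjusted p = 0.000708). In no other fit without 1 rat did limma call it. Leukocyte markers in these samples ranged from 3377 to 7930 with vehicle and from 1441 to 2941 with TGFBRi, and mature luminal markers from 9216 to 35414 and from 10831 to 24072, and their part was not tested. The directions in these bulk samples of ACI and SD rats at day 0 were opposite, and the ACI value is the one the members were chosen on. The difference between the strains was not tested, since the samples were normalized separately.

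Sorted single cells of SD rats held few bearing cells in vehicle rats, 0, 0 and 0.09995% of luminal cells, and 0 to 2.69% in TGFBRi rats with a median of 0.301%. The high value came from rat SD13, while SD12 and SD14 had none, so the groups overlapped. Over mature luminal-like cells the difference was 2.11 (edgeR adjusted p = 0.444), and 0.91 without SD13. Here the class held different clusters in the treatments: 60.2% of its TGFBRi cells and 5.29% of its vehicle cells lay in the cluster led by CLCA1, SPT1 and GLYCAM1, and 1.08% and 67.8% in another. In whole SD glands the bearing cells made up 1.496%, 0.914% and 12.7% of luminal cells in vehicle rats and 0.0565 to 3.25%, with a median of 0.832%, in TGFBRi rats. The difference over mature luminal-like cells was -1.23 (edgeR adjusted p = 0.544) and turned to 0.25 without vehicle rat veh4. None of the 3 members tested in mature luminal-like cells was called in SD cells, where 29.5% of genes were (15% higher and 14.5% lower), or in whole glands, where 28.2% were (13% higher and 15.2% lower), and none had an unadjusted p under 0.05 or was called by DESeq2.

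UPK3A was also found in other sorted fractions. In SD basal samples it was 0 in each of the 4 vehicle rats and 42.4, 47.02, 159 and 2.64 in TGFBRi rats (listed in the order of the luminal values). The difference was 5.05 (SE 0.99, limma adjusted p = 0.98). In SD basal cells 0% of all genes were called, and none of the 3 members by limma or edgeR. Of the members 1, UPK3A, had an unadjusted p under 0.05, as had 494 of 12571 genes. DESeq2 called UPK3A (adjusted p = 4.19e-06). Among the fits without 1 rat, limma called it only in the fit without D8R (6.11, limma adjusted p = 0.0494). UPK3A met the minimum for testing through the TGFBRi rats alone, so these calls cannot support a change in basal cells. In CD45+ cells of SD rats it was 0, 8.57, 1.10 and 0.967 with vehicle and 133, 212, 312 and 5.48 with TGFBRi. As a share of each sample's reads on genes, the SD basal samples held 4.98 to 10.6% of the UPK3A of the luminal sample of the same rat, and CD45+ samples 13.3 to 19.04%, in the 3 rats with luminal UPK3A. The luminal markers, measured in the same way, reached 18.2 to 27.5% and 8.53 to 11.5%. In the 15 young ACI rats other than the TGFBRi rats of day 0, basal samples held a median of 1.42% of it (0 to 11.3%) and CD45+ samples 8.83% (0 to 44.3%). For luminal markers these were 16.3% (13.4 to 25.2%) and 5.13% (2.79 to 9.12%). In basal samples of these rats the share of UPK3A lay below that of luminal markers throughout.

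**Figure D4:**
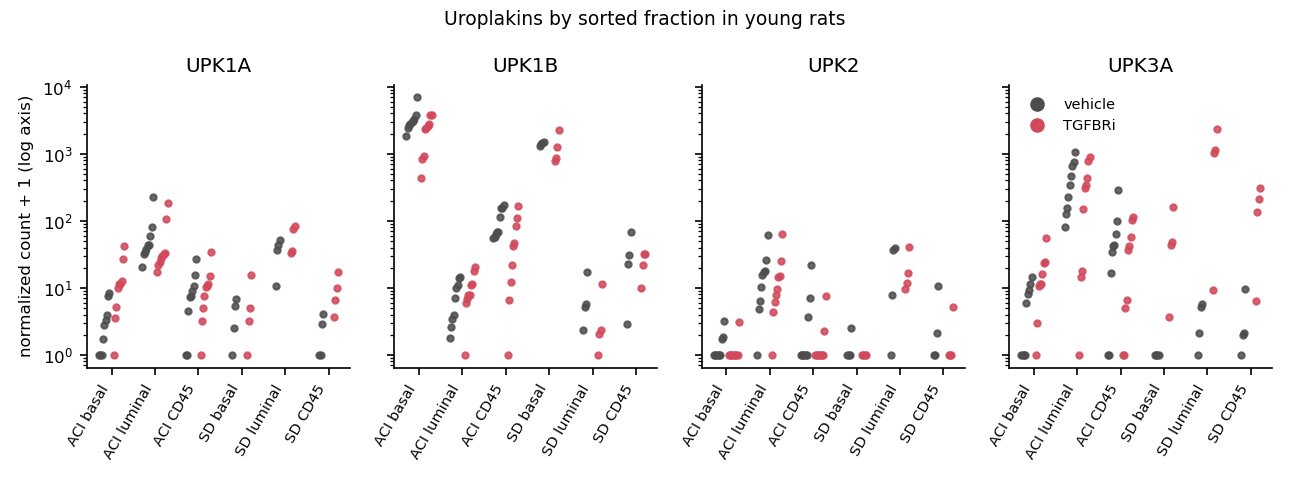
Normalized counts (plus 1, log axis) of UPK1A, UPK1B, UPK2 and UPK3A in sorted basal, luminal and CD45+ samples of young ACI and SD rats, with 1 point per sample, coloured by treatment, and all days of ACI rats together. UPK1B lies highest in basal samples, from 438 to 6941 in ACI rats, UPK3A reaches 1072 in ACI and 2369 in SD luminal samples, and CD45+ samples were normalized apart from the other fractions.

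UPK1B, measured where it is expressed, gave the 1 call among 125 tests of a member in bulk samples. In basal samples of young ACI rats at day 0 its normalized counts were 3115, 2754 and 2413 with vehicle and 842, 929 and 438 with TGFBRi. Every treated rat lay below every vehicle rat. The difference was -1.97 (SE 0.36, limma adjusted p = 0.014). Of the 15643 genes tested in these samples 3.34% were called, 2.51% higher and 0.837% lower, and 4023 had an unadjusted p under 0.05. Of the 3 members tested, 2 had such a p. UPK1B was the only one that was called, by limma, by edgeR (adjusted p = 0.0289) and by DESeq2. It was called in 8 of 8 other settings and in 16 of 18 fits without 1 rat. Most of these 18 rats were of later days and not part of the day 0 comparison, so that count overstates how stable the call was. The call was lost without LD3L (limma adjusted p = 0.0689) or LD3R (limma adjusted p = 0.0585), which were among the 3 vehicle rats of day 0.

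Several markers moved with it. The 11 basal markers, all of them above 0, summed to 264778 to 329763 with vehicle and to 108016 to 217458 with TGFBRi, also without overlap. The leukocyte markers in these samples ranged from 1089 to 1790 and from 2845 to 7149, and fibroblast markers from 54276 to 127656 and from 36131 to 509454. The cycling markers all lay lower with TGFBRi, and BIRC5 (-3.33, limma adjusted p = 0.0339) and TK1 (-5.08, limma adjusted p = 0.0241) were called, where 0.837% of all genes were called lower. Depths were 12382292 to 18781674 reads with vehicle and 4194912 to 15136358 with TGFBRi. The part of these markers and of depth was not tested. Per 1000 units of summed basal markers, UPK1B stood at 9.45, 8.70 and 9.11 with vehicle and at 3.87, 6.56 and 4.05 with TGFBRi, so that the groups did not overlap on that scale either. Relative to KRT5, a keratin of basal cells, it was 14.2, 12.4 and 14.3% with vehicle and 8.94, 9.60 and 9.79% with TGFBRi. On both scales the order turned at day 7. Per 1000 units of basal markers UPK1B then stood at 10.3, 8.85 and 12.4 with vehicle and at 13.01, 13.002 and 13.3 with TGFBRi, and relative to KRT5 at 6.78, 9.09 and 13.02% and at 21.7, 16.2 and 16.4%, every treated rat above every vehicle rat, with or without LD2LR (8.85 and 9.09%). At day 14 the groups overlapped on both scales (8.93 to 10.4 and 7.34 to 10.2 per 1000 units, and 10.4 to 31.5% and 12.6 to 15.4% of KRT5). These ratios were added after the data were seen and carry no test.

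As normalized counts, without that scaling, the groups overlapped at days 7 and 14. UPK1B was 1834, 2981 and 2676 with vehicle and 3808, 2792 and 2337 with TGFBRi at day 7, a difference of 0.25 (SE 0.36, limma adjusted p = 0.941). At day 14 it was 6941, 3357 and 3747 with vehicle and 2437, 2640 and 3816 with TGFBRi, a difference of -0.61 (SE 0.36, limma adjusted p = 1). None of the 3 members was called by limma, edgeR or DESeq2 or had an unadjusted p under 0.05 at day 7, where 0.00639% of genes were called, or at day 14, where 0% were. The difference between the treatment effects of day 0 and day 7 was -2.23 (SE 0.52, limma adjusted p = 0.305, unadjusted p = 0.000527) and that between day 0 and day 14 was -1.36 (SE 0.52, limma adjusted p = 0.336). limma called 0% and 0.00639% of genes in these contrasts, which were added after the data were seen. Of the 3 members in each, none was called by limma or edgeR, UPK1B had an unadjusted p under 0.05 in both, and DESeq2 called it for day 7 (-2.10, adjusted p = 0.0354). Among 15643 genes, 918 and 1879 had such an unadjusted p.

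**Figure D5:**
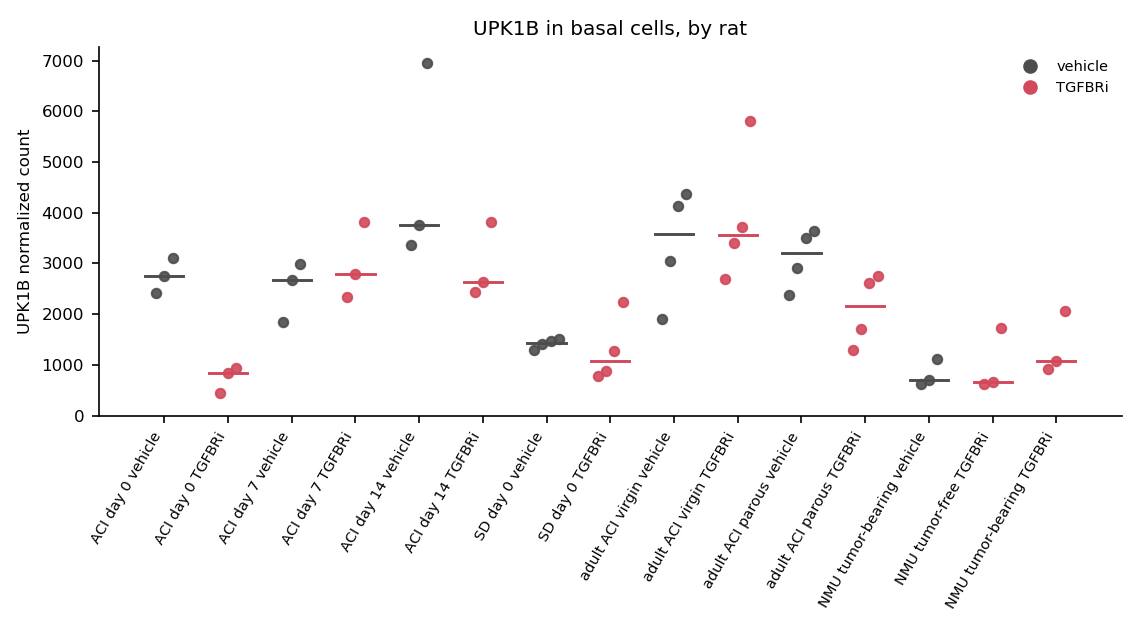
UPK1B in bulk basal samples (normalized count, y axis from 0) by group, with 1 point per rat, vehicle and TGFBRi in separate colours and a line at the group median. At day 0 of young ACI rats the 3 TGFBRi rats lie between 438 and 929, below the 3 vehicle rats at 2413 to 3115.

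In SD rats and in single cells UPK1B was not called. SD basal samples held 1473, 1403, 1291 and 1512 with vehicle and 1277, 2239, 876 and 782 with TGFBRi, a difference of -0.26 (SE 0.28, limma adjusted p = 0.98). Fibroblast markers in these samples ranged from 371683 to 594870 with vehicle and from 186863 to 622655 with TGFBRi, and their part was not tested. Summed over basal-like single cells, UPK1B stood at 0.815, 0.856 and 0.912 UMIs per 10000 in ACI vehicle rats and at 0.646, 0.810 and 0.838 in ACI TGFBRi rats. The groups overlapped, and the difference was 0.06 on the log2 scale after TMM scaling (edgeR adjusted p = 0.722). In sorted SD cells the range was 0.618 to 1.39 with vehicle and 0.511 to 1.43, with a median of 1.10, with TGFBRi (0.47, edgeR adjusted p = 0.265). In whole glands it was 0.234 to 0.847 with vehicle and 0.581 to 1.75, with a median of 0.658, with TGFBRi (1.02, edgeR adjusted p = 0.143). Without veh4, the highest of the vehicle rats, the difference was 1.62 (edgeR adjusted p = 0.0258). This was the 1 call among 9 fits without 1 rat. Of all genes in basal-like cells, 34.6% in ACI, 29.4% in SD and 45.5% in whole glands were called, and UPK1B, the 1 member tested, in none of the 3, neither by DESeq2 nor at an unadjusted p under 0.05.

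UPK1A was a low gene of luminal samples. In young ACI luminal samples it ranged from 16.1 to 225 with no order by day. At day 0 it was 37.6, 30.6 and 58.03 with vehicle and 21.3, 26.7 and 16.1 with TGFBRi, values that did not overlap and that belong to the contrast of the choice. The values of UPK1B and UPK2 in the same samples were at most 17.1 and 9.48, and overlapped. In basal samples at day 0 UPK1A was 0, 7.34 and 0 with vehicle and 26.2, 41.5 and 9.13 with TGFBRi, a difference of 3.48 (SE 1.09) that limma did not call (adjusted p = 0.0786). It was called with a pseudocount of 5 (adjusted p = 0.0429), with TMM scaling (1.08, adjusted p = 0.0321) and without TGFBRi rat LD10R (adjusted p = 0.03), but not by edgeR or DESeq2 (adjusted p = 0.276 and 0.15).

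UPK2, the partner of UPK1A, was called in no comparison. In young ACI luminal samples it was 3.92, 9.48 and 0 with vehicle at day 0, then 5.30, 14.8 and 60.3 at day 7 and 16.6, 16.0 and 25.5 at day 14. In TGFBRi rats it was 8.53, 3.34 and 0 at day 0, then 63.2, 24.0 and 13.9 at day 7 and 6.92, 5.06 and 13.7 at day 14. Day 7 and day 0 did not overlap in TGFBRi rats (3.06, SE 1.02, limma adjusted p = 0.215, DESeq2 adjusted p = 0.0961), and day 14 and day 0 did not overlap in vehicle rats (2.42, SE 1.02, limma adjusted p = 0.543). Across the 8 tested comparisons of young ACI luminal samples, 28 tests of a member gave no call by limma, edgeR or DESeq2 and 3 unadjusted p under 0.05, all of UPK2 against day 0. In these comparisons 2513 (day 7 with vehicle), 1159 (day 14 with vehicle) and 2119 (day 7 with TGFBRi) of 15181 genes had such a p. The share of all genes called was 0% for treatment at days 7 and 14. Between the days it was 0.685%, 0.389% and 0.217% in vehicle rats (day 7 against 0, day 14 against 0 and day 14 against 7) and 0.369%, 3.95% and 0.0263% in TGFBRi rats.

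In luminal progenitor-like cells UPK1A stood at 0.0245 to 0.0343 UMIs per 10000 in ACI vehicle rats and at 0.0307 to 0.0413 in TGFBRi rats (0.68, edgeR adjusted p = 0.157). The differences were 0.35 in SD cells (edgeR adjusted p = 0.522) and 0.60 in whole glands (edgeR adjusted p = 0.416), all with overlapping rats. None of the 2, 2 and 4 members tested in this class was called by edgeR or DESeq2 or had an unadjusted p under 0.05, where 28%, 29.3% and 27.2% of genes were called. UPK2 in mature luminal-like ACI cells did not overlap between vehicle rats (0.00231 to 0.00582) and TGFBRi rats (0.00711 to 0.00834), on 9 and 13 UMIs in all (0.86, edgeR adjusted p = 0.372).

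Adult ACI rats had almost no UPK3A. The 16 luminal samples ranged from 0 to 7.31, in vehicle rats from 0 to 0.880 (virgin) and 0 to 1.57 (parous), and in TGFBRi rats from 0 to 1.17 (virgin) and 0 to 7.31 (parous). UPK3A was at 0 in 10 of these 16 samples, and the largest contrast, parous against virgin in TGFBRi rats, was 1.44 (SE 0.65, limma adjusted p = 1). In the same samples UPK1A was detected in every rat, from 11.3 to 179. Of 20 tests of a member, limma, edgeR and DESeq2 called none, with 2 unadjusted p under 0.05. Both were of UPK3A in parous TGFBRi rats, against parous vehicle and against virgin TGFBRi rats. In these comparisons 1858 and 419 of 14243 genes had such a p. UPK3A met the minimum for testing only through the parous TGFBRi rats, so these 2 p cannot support a change. Of all genes, 0% were called for treatment in virgin and 0.0281% in parous rats, 0% for parity with vehicle or with TGFBRi, and 0% for the difference of the treatment effects.

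The adult basal samples held UPK1B and traces of UPK1A. UPK1B was 1909, 3039, 4135 and 4359 in virgin vehicle, 2690, 3725, 3405 and 5811 in virgin TGFBRi, 3503, 2903, 3634 and 2380 in parous vehicle and 1283, 1701, 2611 and 2751 in parous TGFBRi rats. Parous TGFBRi rats lay lowest but overlapped with the others. Against virgin TGFBRi rats they differed by -0.91 (SE 0.30, limma adjusted p = 0.058, edgeR 0.0797), a difference called by DESeq2 (adjusted p = 0.0318) and by limma without virgin vehicle rat C_N1N (adjusted p = 0.0371) or virgin TGFBRi rat D_N1N (adjusted p = 0.0291). UPK1A was 5.64, 16.4, 2.08 and 16.4 in parous vehicle rats and 0 in each of the 4 parous TGFBRi rats, without overlap. The difference was -3.15 (SE 0.86, limma unadjusted p = 0.00197, adjusted p = 0.737). limma called none in 10 tests of a member, edgeR none and DESeq2 1, with 3 unadjusted p under 0.05. These were UPK1A for treatment in virgin and in parous rats and UPK1B for parity with TGFBRi. In these comparisons 3461, 678 and 3872 of 13442 genes had such a p. Among all genes 8.73% were called for treatment in virgin and 0.00744% in parous rats, 0% and 12.1% for parity with vehicle and with TGFBRi, and 1.04% for the difference of the treatment effects.

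Under E2, UPK3A stayed near 0. It was at 0 in all luminal samples of the 17 rats but A4-18 (vehicle without E2, 20.9), A4-37 (tumor-bearing vehicle with E2, 30.99) and 1 of the 4 parts of A4-15 (0.758). UPK2 was 0, 36.9, 8.55 and 0 in vehicle rats without E2 and 48.96, 33.8, 28.2 and 91.03 in tumor-bearing vehicle rats with E2, so that 2 of the 4 rats with E2 lay above the highest rat without it and the groups overlapped. The difference was 3.41 (SE 1.13, limma unadjusted p = 0.0073, adjusted p = 0.146), called by neither edgeR nor DESeq2. Among the fits without 1 rat, limma called it only in the fit without A4-28 (adjusted p = 0.0468). UPK1B was 0 in the 4 vehicle rats without E2 and 13.4, 34.5 and 11.9 in the 3 TGFBRi rats without E2 (4.23, SE 1.39, limma adjusted p = 1). Of 20 tests of a member limma, edgeR and DESeq2 called none, with 2 unadjusted p under 0.05. These were UPK1B for TGFBRi without E2 and UPK2 for E2 in vehicle rats, where 432 and 1972 of 13590 genes had such a p. The share of all genes called was 0.0147% for TGFBRi without E2, 1.48% for E2 in vehicle rats, 4.58% for E2 in tumor-free TGFBRi rats, and 0.0147% and 0.00736% for tumor-free and tumor-bearing TGFBRi rats against vehicle rats with E2.

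After NMU, normal luminal cells held UPK3A in 1 of the 9 rats at 757 (tumor-bearing vehicle rat C2R) and at most 31.9 in the others. UPK1A was detected in all 9 luminal samples (17.4 to 120), and UPK1B in all 9 basal samples (617 to 2053). In luminal samples 12 tests of a member and in basal samples 9 tests gave no call by limma, edgeR or DESeq2 and no unadjusted p under 0.05. Of all genes, 0.948%, 0.212% and 0% were called in luminal and 0%, 1.31% and 5.58% in basal samples, for tumor-free TGFBRi against vehicle, tumor-bearing TGFBRi against vehicle, and tumor-free against tumor-bearing TGFBRi rats.

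The tumors held UPK3A in the EPCAM+ cells of every rat, in a table normalized apart from the glands. It was 1206, 3417 and 10958 in tumors of vehicle rats and 4744, 11.1 and 50.8 in tumors of TGFBRi rats. The groups overlapped through the tumor of D2N at 4744. The difference was -4.63 (SE 1.82, limma unadjusted p = 0.0303, adjusted p = 1). UPK1B was 1496, 1074 and 391 with vehicle and 1123, 446 and 781 with TGFBRi, and UPK1A and UPK2 stayed at 56.2 and 10.3 or below. None of the 4 members was called by limma, edgeR or DESeq2, 1 had an unadjusted p under 0.05, and 0% of all genes were called. Among 12951 genes 278 had such an unadjusted p. UPK3A and UPK1B were found in the same sorted samples of tumors. Fibroblast markers in these samples ranged from 118999 to 1490400 with vehicle and from 367240 to 1119350 with TGFBRi, and luminal markers from 100110 to 194800 and from 44909 to 101572, and their part was not tested. Whether single tumor cells held both was not measured.

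Other urothelial genes were not called in the day 0 luminal samples of ACI rats, in the same contrast that the members were chosen on. Of 10 tested genes of urothelial differentiation and apical trafficking none was called, with a median of -0.10, and of 11 urothelial regulators none, with a median of -0.05, against 0.21 over all genes. Of 9 mature luminal and 11 luminal progenitor markers none was called (medians 0.05 and -0.48). Of 12 cycling markers 4 fell and none rose (median -1.74): TK1 (-4.16), BIRC5 (-4.04), RACGAP1 (-3.71) and MCM5 (-2.53), genes of DNA synthesis and cell division. Over all genes of this contrast 1.01% were called, 0.184% lower, so that no call among about 10 genes says little of a list. In SD luminal samples, where limma called 0% of all genes, none of the genes of the 5 lists was called either, the cycling markers included.

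In mature luminal-like single cells the lists had mixed calls, to be read against 26.1% of all genes called in ACI (13.7% higher and 12.4% lower), 29.5% in SD (15% and 14.5%) and 28.2% in whole glands (13% and 15.2%). Of 11 genes of urothelial differentiation, 3 rose and 2 fell in ACI, 2 rose and 0 fell in SD, and 1 rose and 6 fell in whole glands. Of 11 urothelial regulators, 2 rose and 3 fell, 3 rose and 1 fell, and 0 rose and 6 fell, the last led by GRHL3, GATA3, NOTCH1 and KLF5. Of 9 mature luminal markers, 0 rose and 3 fell (PGR, ESR1 and FOXA1) in ACI, 0 rose and 2 fell in SD, and 4 rose and 2 fell in whole glands. Of the cycling markers none was called in ACI, 5 of 12 rose in SD (median 2.19) and 1, MCM5, rose in whole glands. UPK3A itself was called in none of these.

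Over the 18 luminal samples of young ACI rats, the genes most like UPK3A were GGH (Pearson r of log2 values 0.90), DNPEP (0.83), FXYD6 (0.82), IFI47 (0.81) and PEPD (0.81), among 9385 genes. These samples share their rats' treatment and day, and without the 3 TGFBRi samples of day 0 the values were 0.70, 0.18, 0.58, 0.28 and 0.25 over 15 samples. Over the 16 luminal samples of adult ACI rats, where UPK3A was near 0, they were 0.31, -0.25, 0.08, -0.46 and -0.38. The genes most like UPK1B were ZFP90 (0.68), CEP112 (0.67), ABHD16A (0.65), ANO4 (0.62) and SYT3 (0.61), over values of UPK1B that did not pass 19.4 in these samples. Without the TGFBRi samples of day 0 the values were 0.55, 0.42, 0.60, 0.27 and 0.18. In adult rats these were 0.18, 0.27, -0.22, -0.45 and 0.06.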

How the data were processed

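Bulk RNA-seq values were deposited by the authors as normalized counts, a signal made from HTSeq counts of STAR 2.5.1b alignments divided by DESeq2 1.30.1 size factors (rn6), and tables were normalized separately, with basal and luminal samples together for young ACI and for SD rats. Single-cell values were UMI counts deposited by the authors from Cell Ranger 4.0.0 or 7.0.0. Per the study's methods the sorted cells had been filtered on genes, mitochondrial share, keratins and PTPRC, and in the files 0 sorted cells had a PTPRC UMI or fewer than 2 keratin UMIs.

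Low bulk values were whole multiples of what 1 read is worth, so whole reads were recovered for 100% of values (within 0.001 reads). Rows naming no gene, 23.1 to 42.5% of reads in the adult and E2 tables, were left out. Genes whose values summed to at least 10 over a table's samples were tested with limma 3.58.1 (trend and robust) on log2(value + 1) across all genes, and called where the p adjusted by Benjamini-Hochberg was at most 0.05. Fold changes on that scale understate the change of low genes. edgeR 4.0.16 and DESeq2 1.42.0 on the recovered reads were alternatives, in R 4.3.3. Parts of 1 rat were averaged.

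Cells were clustered with scanpy 1.11.5 and leidenalg 0.10.2 on 2000 variable genes, without uroplakins. No doublets were removed, and leaving out the 6% of cells with the highest Scrublet scores was an alternative. UMI counts summed per rat and class were tested with edgeR (adjusted p of 0.1 or less). The scripts were tested on simulated data: of 200 genes changed 4-fold, limma recovered 27.5% in ACI basal samples at day 0, 57% in SD luminal samples and 7.5% in tumors. It also called 6, 6 and 2 unchanged genes. DESeq2 recovered 54.5%, 75.5% and 49% and called 32, 34 and 42 unchanged genes, so that calls by DESeq2 alone are less certain. Over all comparisons simulated, limma recovered from 7.5% (tumors) to 89% (SD basal samples). Genes with few reads were not among those changed. The recovery therefore does not cover a gene near 0 in 1 group, such as UPK3A in SD vehicle rats.

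The members and gene lists were chosen with earlier results of these data known. Genes named were the 5 members, up to 4 called members of each list with the largest change, and the 5 genes best correlated with UPK3A and UPK1B. Genes named for clusters, UPK3A-bearing cells and the ratio to KRT5 fell outside this rule and were chosen after their values were seen. The minimum of 3 UMIs, the ratios of UPK1B to basal markers, comparisons of like depth, shares of cells without a rat, differences between days and the test in basal-like cells were added after the data were seen. Other settings are given in the closing section.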

Additional observations from a re-analysis of the deposited data

Results flagged for a closer look

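Among 40 groups examined for a sample far from the rest, 7 had one, and chance gives about 5% of groups. UPK1B in luminal samples was high in SD TGFBRi rat D7R (10.5), adult virgin vehicle rat C_N1N (161), E2-treated tumor-bearing vehicle rat A4-27 (33.8) and E2-treated tumor-free TGFBRi rat A4-24 (53.8). UPK3A in luminal samples was high in A4-37 (30.99) and A4-18 (20.9), and UPK3A-bearing cells were most frequent among SD TGFBRi rats in SD13 (2.69% of luminal cells). In the groups of A4-27, A4-24, A4-37 and A4-18 the other rats had equal values. There any rat that differs is flagged, so the 5% does not hold for such groups.

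The treatment difference of UPK3A in bulk luminal samples at day 0 had opposite signs in the strains, -6.99 in ACI and 7.15 in SD, with no overlap between the treatment groups of either. The ACI value is what the members were chosen on and carries no test. In mature luminal-like single cells the difference was 0.80 in ACI, 2.11 in sorted SD cells and -1.23 in whole SD glands. There the rats overlapped and UPK3A was not called. The difference between the strains was not tested. CD45+ samples, which entered no test of a member, held UPK3A at 133, 212 and 312 in 3 of the 4 SD TGFBRi rats, above the 4 vehicle rats at 8.57 or below.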

How the results depend on the processing

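The fall of UPK1B in ACI basal samples at day 0 was called in 8 of 8 other settings and in 16 of 18 fits without 1 sample. Most of these 18 samples were of later days and not part of the day 0 comparison. The call was lost without LD3L or LD3R, vehicle rats of day 0. Counts of called members stayed within 1.5 times the reported count in 340 cases with another setting and moved in 6, and without 1 sample they stayed in 614 and moved in 13. The reported count was 0 in every comparison but that of ACI basal samples at day 0. Most of these cases are therefore a 0 that stayed 0 and say little of stability. In ACI basal samples at day 0 the count rose to 2 with a pseudocount of 5 and with TMM scaling. DESeq2 called 1 member in SD luminal samples, 1 in SD basal samples, 1 in parous against virgin TGFBRi basal samples and 1 in the difference between days 0 and 7. Without 1 sample the count ran from 0 to 2 in ACI basal samples at day 0, and from 0 to 1 in SD luminal, SD basal, adult virgin basal, parous against virgin TGFBRi basal, both E2 against no E2 comparisons, ACI luminal progenitor-like, whole-gland basal-like and whole-gland mature luminal-like cells. Thinned to 2000 UMIs, the shares of ACI, SD and whole-gland cells were 0.318, 0.213 and 0.392% for UPK2 in mature luminal-like, 0.685, 0.687 and 0.590% for UPK1A in luminal progenitor-like and 13.2, 17.5 and 11.1% for UPK1B in basal-like cells. The construction of these shares, with fewer UMIs per cell, lowers them. The cause of the other changes was not tested.

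Adult samples share rat labels across groups, but deviations of same-label samples correlated at only -0.0844 to 0.0997, so the labels did not pair them. With the replicate block of the rat label 0 members were called in each of the adult comparisons, as without it. Intervals and floors cover counting error only, and with 3 or 4 rats a group small changes of low genes were not detectable.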
